A study of Mus musculus with 24 samples.

Results

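The Dlk1-Dio3 miRNA cluster of the mouse was followed in the mammary gland through adulthood, pregnancy, lactation and involution. Its members were chosen by name, as the rows of the deposited table that carry 1 of 48 miRNA numbers known from this locus, with any letter or arm. They were 77 of the 1009 miRNAs in the table. The numbers 432, 453, 654 and 882 had no row. All 77 could be placed on the reference annotation, and they came from 46 hairpins on the plus strand of chromosome 12, between bases 109563692 and 109743795 of GRCm38, a span of 180.1 kb.

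Glands were taken from 24 female C57BL/6 mice, an inbred strain, with 6 mice and 1 library per mouse at each of 4 stages. The groups were adults aged 10 weeks (W10) and mice at day 18 of gestation (P18), at day 7 of lactation (Lac7) and at day 3 of involution (Inv3), the regression of the gland that follows weaning. These days are those of the labels and of the study's methods, whereas the series' own design text has lactation at day 3 and involution at day 7. No group carried an allele or an agent. Whole homogenates of abdominal and inguinal glands were used, so each library mixes epithelium, fat, fibroblasts, vessels and immune cells, and fewer cells of a type cannot be told apart from less RNA per cell.

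The Dlk1-Dio3 locus is imprinted, which means that each of its genes is active on the copy from only one parent. The protein genes Dlk1, Rtl1 and Dio3 are expressed from the paternal copy, and the long non-coding RNAs Meg3, Rian and Mirg, together with the miRNAs, from the maternal one. The miRNAs are cut from this long maternal RNA and are known for high levels in the embryo, the placenta and the brain. Dlk1 is also known as preadipocyte factor, a protein of fat cell precursors, which the fat pad of the mammary gland contains. The libraries do not tell the parental copies apart.

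The hairpins fell into 3 blocks, split wherever neighbours lay over 10 kb apart. Block 1 ran from Mir770 to Mir136 (11 hairpins, 19 mature miRNAs, 31.7 kb, from 109563692 to 109595388). Mir770 lay in an exon of Meg3, and 5 hairpins of this block lay opposite to an exon of Rtl1. miRNAs from these hairpins are fully complementary to the Rtl1 mRNA of the paternal copy, and several are known to cut it. Block 2 held Mir341 and Mir370 in introns of Rian (4 mature miRNAs, 6.8 kb). Block 3 ran from Mir379 to Mir410 (33 hairpins, 54 mature miRNAs, 34.7 kb, from 109709060 to 109743795), and 12 of its hairpins lay in exons or introns of Mirg. The annotation placed 26 of the 46 hairpins between annotated genes.

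A mature miRNA finds its targets mainly through its seed, the bases 2 to 8 counted from the 5′ end. Mature sequences from RefSeq (GRCm38.p6) matched 73 of the 77 members, with 71 distinct seeds and lengths of 19 to 25 nt (median 22). The sequences of the 15 members that the results turn on are given here 5′ to 3′ with the seed in capitals, in their order along the chromosome.
miR-431-5p: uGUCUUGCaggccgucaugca
miR-127-5p: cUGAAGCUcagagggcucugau
miR-127-3p: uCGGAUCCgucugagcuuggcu
miR-434-5p: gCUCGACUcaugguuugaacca
miR-434-3p: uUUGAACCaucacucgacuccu
miR-379-5p: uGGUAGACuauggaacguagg
miR-411-5p: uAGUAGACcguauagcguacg
miR-299a-5p: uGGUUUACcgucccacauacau
miR-376b-5p: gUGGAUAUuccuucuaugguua
miR-300-3p: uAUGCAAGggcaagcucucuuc
miR-381-3p: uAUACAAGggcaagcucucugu
miR-382-5p: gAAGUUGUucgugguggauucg
miR-154-5p: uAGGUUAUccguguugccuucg
miR-541-5p: aAGGGAUUcugauguuggucacacu
miR-409-5p: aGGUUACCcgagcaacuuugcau

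A seed was shared by 2 members in 2 cases. The first was that of miR-379-3p and miR-411-3p, and the second that of miR-376b-5p (printed above) and miR-376c-5p. Their sequences are shown to make the shared seeds visible.
miR-379-3p: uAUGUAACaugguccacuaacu
miR-411-3p: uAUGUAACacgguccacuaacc
miR-376c-5p: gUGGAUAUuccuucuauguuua
With positions counted from 1 at the 5′ end, miR-376c-5p and miR-376b-5p differed at 1 of 22 positions (U19G). The arms miR-379-3p and miR-411-3p differed at 2 positions (U10C and U22C). The abundant miR-300-3p and miR-381-3p differed at 3 of 22 positions (G4A, U21G and C22U), of which 1 lies in the seed. Reads of such near-identical members can be split between them by the counting, so their separate levels are uncertain. A seed was also shared with a miRNA from elsewhere in the table for 6 members, among them miR-379-5p, which shares its seed with miR-1193-5p of the same region.

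The long RNA that holds the miRNAs starts at the Meg3 promoter. The stretch shown from RefSeq is chr12:109540746-109541045 (GRCm38.p6, plus strand), with 250 bases before and 50 after the start of Meg3. Motifs found by a search are in capitals.
Meg3: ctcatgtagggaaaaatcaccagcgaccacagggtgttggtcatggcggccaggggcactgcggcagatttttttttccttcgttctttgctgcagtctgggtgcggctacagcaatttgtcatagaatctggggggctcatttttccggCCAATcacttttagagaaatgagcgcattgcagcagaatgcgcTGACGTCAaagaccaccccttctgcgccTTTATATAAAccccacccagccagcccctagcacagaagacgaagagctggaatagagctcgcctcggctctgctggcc
Both strands were searched. The letters CCAAT began 100 bases before the start and are held by 37.4% of the 32851 promoters of this length. The letters TGACGTCA, the site of cAMP response element binding proteins, began 57 bases before the start and are held by 1.8% of promoters. The letters TATAAA were found on both strands in overlapping positions, 29 and 25 bases before the start, and are held by 13.6%. Neither TTCNNNGAA (8.3% of promoters), the letters of STAT sites, nor CANNTG (72.3%), the E-box, was in this window. These matches describe letters and are not evidence of binding, and the part of this promoter in the changes between stages was not tested.

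The values are RPM, reads per 1000000 reads assigned to miRNAs, as deposited by the authors. Between 660346 and 1165321 reads stood behind a library, with the fewest at Lac7. A single read was worth 0.858 to 1.514 RPM, and a count of 0 allows a level of up to 3 reads, 2.57 to 4.54 RPM. These limits cover counting error only. No 2 libraries of a stage agreed within sampling noise. A value in RPM also depends on how many reads all other miRNAs take.

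The cluster made up a small part of the miRNA of the gland. Its summed level was 1793 RPM in the lowest, 2230 in the median and 2707 in the highest mouse at W10, and 1830, 2031 and 2202 RPM at P18. It stood at 319, 399 and 692 RPM at Lac7 and at 597, 888 and 1729 RPM at Inv3. All Lac7 mice were below all P18 mice and all W10 mice, whereas W10 and P18 overlapped, and Inv3 overlapped with Lac7 through its lowest mouse. As a share of all miRNA reads, this was 0.2225% ± 0.0299 (SD, n = 6) in W10 mice, 0.202% ± 0.0124 in P18 mice, 0.0430% ± 0.0133 in Lac7 mice and 0.102% ± 0.0396 in Inv3 mice.

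**Figure D1:**
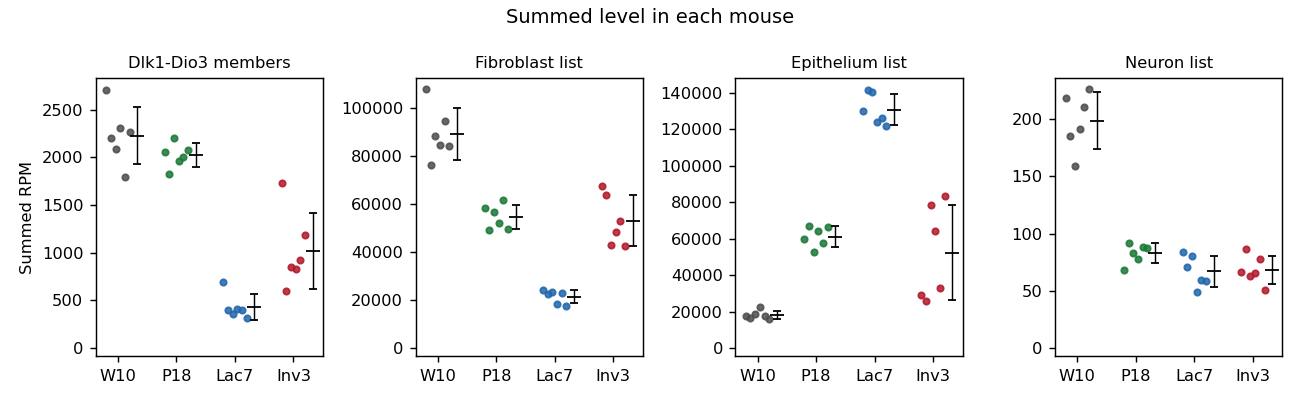
Summed RPM of the Dlk1-Dio3 members and of 3 lists of marker miRNAs (vertical axes) in each of the 24 mice, by stage. Points are mice, and the black bar and whiskers are the mean and SD. The members lie at 319 to 692 RPM in the Lac7 mice, below every W10 and P18 mouse, and Lac7 mouse 1 and Inv3 mouse 1 stand above the others of their stage.

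Mouse 1 of Lac7 (692 RPM) and mouse 1 of Inv3 (1729 RPM) stood above their groups. Of the 12 most abundant members, 9 were highest in Lac7 mouse 1 among the Lac7 mice, and 10 were highest in Inv3 mouse 1 among the Inv3 mice. W10 mouse 1 was likewise highest for 8 of the 12 among the W10 mice, whereas P18 mouse 1 was highest for 2. At the other end, 9 of the 12 were lowest in Inv3 mouse 2. The same number does not mark the same animal or batch in the labels. After the stage means were taken off, the 66 pairs of these 12 members had a median Pearson correlation of 0.48 and a median Spearman correlation of 0.35 over the 24 mice. For 157 other miRNAs within the same range of mean level, both medians were 0.03. Without mouse 1 of Lac7 and of Inv3, the members' medians were 0.28 and 0.22. Members of a mouse share its library and its total, and these correlations are given as a description.

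Most members were scarce. Counting means of 1 RPM or more, the W10 glands held 47 members, the P18 glands 42, the Lac7 glands 24 and the Inv3 glands 35, and 23 were found at all 4 stages. With the limit at 10 RPM there were 17, 17, 9 and 12, and with the limit at 100 RPM there were 8, 5, 1 and 2. The 27 members that did not reach 1 RPM at any stage had 1 to 14 reads in all over the 24 libraries, with a median of 3, so their stages could not be compared at this depth. The other 50 members were tested, 32 of which stayed under 10 RPM at every stage. The shallower Lac7 libraries had less room to show the scarce members, but after thinning all libraries to the smallest one the numbers detected kept the same order of stages.

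**Figure D2:**
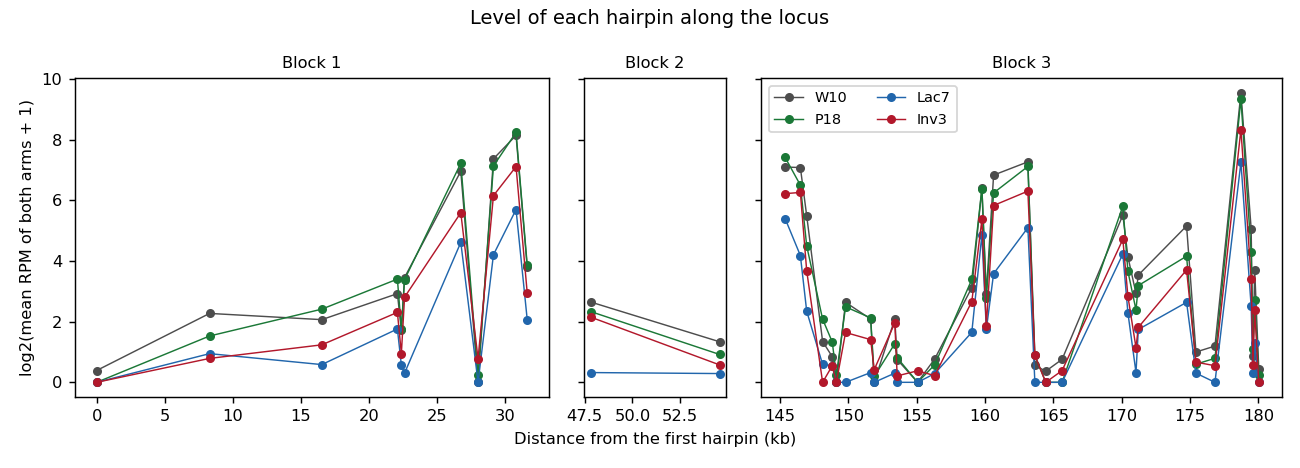
Level of each of the 46 hairpins along the locus, as log2 of the mean RPM of both arms plus 1 (vertical axis), against the distance in kb from the first hairpin (horizontal axis), in 3 panels for the 3 blocks. Each line is the mean of 6 mice of a stage. The most abundant hairpins are largely the same at each stage, with the highest point at Mir541 near the end of block 3, and the Lac7 line lies lowest at the abundant hairpins.

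The levels differed widely between hairpins of the same RNA. miR-541-5p, from an intron of Mirg, was the most abundant member at each stage, with 33.5% ± 4.0 (SD, n = 6) of the reads of the cluster in W10 mice, 32.1% ± 4.0 in P18 mice, 35.2% ± 3.6 in Lac7 mice and 31.7% ± 3.8 in Inv3 mice. Its share therefore stayed within the spread between mice while the sum of the cluster changed. Block 1 held 27.4% ± 1.8 of the cluster's reads in W10 mice, 31.3% ± 1.7 in P18 mice, 23.6% ± 2.5 in Lac7 mice and 26.9% ± 2.4 in Inv3 mice. All P18 mice (29.8 to 34.1%) stood above all Lac7 mice (20.2 to 27.6%) in this share, which is given with no test. Block 2 was nearly silent, with at most 8.77 RPM in any mouse.

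Of the 2 arms of a hairpin, the 5p arm had more reads in most of the cluster, as it did over the table, and the difference was not tested. Among 26 hairpins with both arms listed and at least 30 reads in all, 19 (73.1%) had more 5p reads, against 128 of 212 hairpins (60.4%) over the table. miR-431 had 1995 reads of the 5p arm and 1 of the 3p arm, and miR-541 had 10901 and 13. The 3p arm led in miR-381 (2352 reads against 2) and in its neighbour miR-300 (1491 against 4). Arms were more even in miR-127 (1479 reads of the 5p arm and 826 of the 3p arm) and in miR-369 (66 and 69).

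The miRNAs opposite to Rtl1 are described first. miR-434-5p stood at 179, 263 and 324 RPM (lowest, median and highest of 6 mice) at W10, at 258, 283 and 297 at P18, at 26.7, 46.3 and 70.6 at Lac7, and at 72.0, 112 and 221 at Inv3. miR-431-5p, which is known for a role in muscle stem cells, stood at 106, 117 and 153 RPM at W10, at 120.1, 152 and 171 at P18, at 19.3, 23.3 and 30.03 at Lac7, and at 29.5, 40.7 and 84.1 at Inv3. For both, every Lac7 mouse was below every W10 and P18 mouse, and the W10 and P18 mice overlapped.

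miR-127-5p stood at 73.5, 107 and 138 RPM at W10, at 76.4, 89.2 and 115 at P18, at 3.99, 7.97 and 18.7 at Lac7, and at 19.8, 38.8 and 83.2 at Inv3. Its partner arm miR-127-3p stood at 43.7, 59.1 and 84.1 RPM at W10, at 37.8, 46.5 and 60.1 at P18, at 4.01, 8.77 and 13.6 at Lac7, and at 13.5, 24.2 and 34.3 at Inv3. miR-434-3p stood at 23.9, 32.8 and 48.4 RPM at W10, at 17.2, 24.4 and 34.7 at P18, at 0, 2.75 and 10.5 at Lac7, and at 1.02, 5.24 and 20.6 at Inv3. These 3 arms again had their lowest medians at Lac7, where miR-434-3p was at or under 3 reads in all mice but 1.

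In block 3 upstream of Mirg, miR-379-5p, the first miRNA of the block, stood at 103, 129.9 and 176 RPM at W10, at 135, 166 and 195 at P18, at 16.9, 41.7 and 61.6 at Lac7, and at 30.6, 67.4 and 109.8 at Inv3. miR-411-5p stood at 103, 130.4 and 179 RPM at W10, at 81.0, 84.6 and 116 at P18, at 8.43, 15.7 and 28.5 at Lac7, and at 45.9, 71.0 and 106 at Inv3. The hairpins of these 2 lie next to each other, and both had their lowest mice at Lac7, but for miR-411-5p all Inv3 mice were above all Lac7 mice and for miR-379-5p they overlapped.

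miR-300-3p stood at 70.8, 117 and 159 RPM at W10, at 61.8, 69.4 and 96.6 at P18, at 8.43, 10.0 and 16.7 at Lac7, and at 20.7, 59.4 and 77.2 at Inv3. The near-identical miR-381-3p stood at 116, 165 and 188 RPM at W10, at 97.6, 135.5 and 184 at P18, at 25.2, 28.0 and 58.6 at Lac7, and at 47.7, 68.2 and 145 at Inv3. miR-376b-5p stood at 57.2, 74.8 and 115 RPM at W10, at 62.2, 80.4 and 96.1 at P18, at 12.6, 23.96 and 51.0 at Lac7, and at 20.00, 37.5 and 55.8 at Inv3. Lac7 was again below W10 and P18 without overlap, and only for miR-300-3p of these 3 were all Inv3 mice above all Lac7 mice.

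miR-299a-5p stood at 32.9, 40.5 and 45.5 RPM at W10, at 15.3, 16.3 and 21.8 at P18, at 0, 3.00 and 7.51 at Lac7, and at 2.77, 6.55 and 14.6 at Inv3. No P18 mouse reached the lowest W10 mouse. The row carries the mark @ in the deposited table, the meaning of which is not given in the sources used here, and it lies at the same place as the antisense miR-299b, so its level is uncertain.

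Of the miRNAs within Mirg, miR-541-5p stood at 587, 727 and 968 RPM at W10, at 526, 655 and 777 at P18, at 112, 142 and 259.7 at Lac7, and at 204, 282 and 599.8 at Inv3. miR-382-5p stood at 26.9, 42.3 and 61.5 RPM at W10, at 34.2, 61.3 and 72.4 at P18, at 9.09, 14.7 and 30.03 at Lac7, and at 13.5, 24.3 and 42.9 at Inv3. For miR-541-5p, mouse 1 was the highest at W10, Lac7 and Inv3. The Lac7 mice of miR-382-5p overlapped with both W10 and Inv3.

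miR-409-5p stood at 17.5, 25.5 and 29.8 RPM at W10, at 2.30, 9.14 and 10.4 at P18, at 0, 1.46 and 9.31 at Lac7, and at 2.05, 5.31 and 12.01 at Inv3. miR-154-5p stood at 21.6, 33.1 and 50.7 RPM at W10, at 11.2, 14.3 and 24.1 at P18, at 1.34, 4.38 and 10.5 at Lac7, and at 0.90, 11.5 and 24.03 at Inv3. Both had their highest mice at W10, and for miR-409-5p no P18 mouse reached the lowest W10 mouse.

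**Figure D3:**
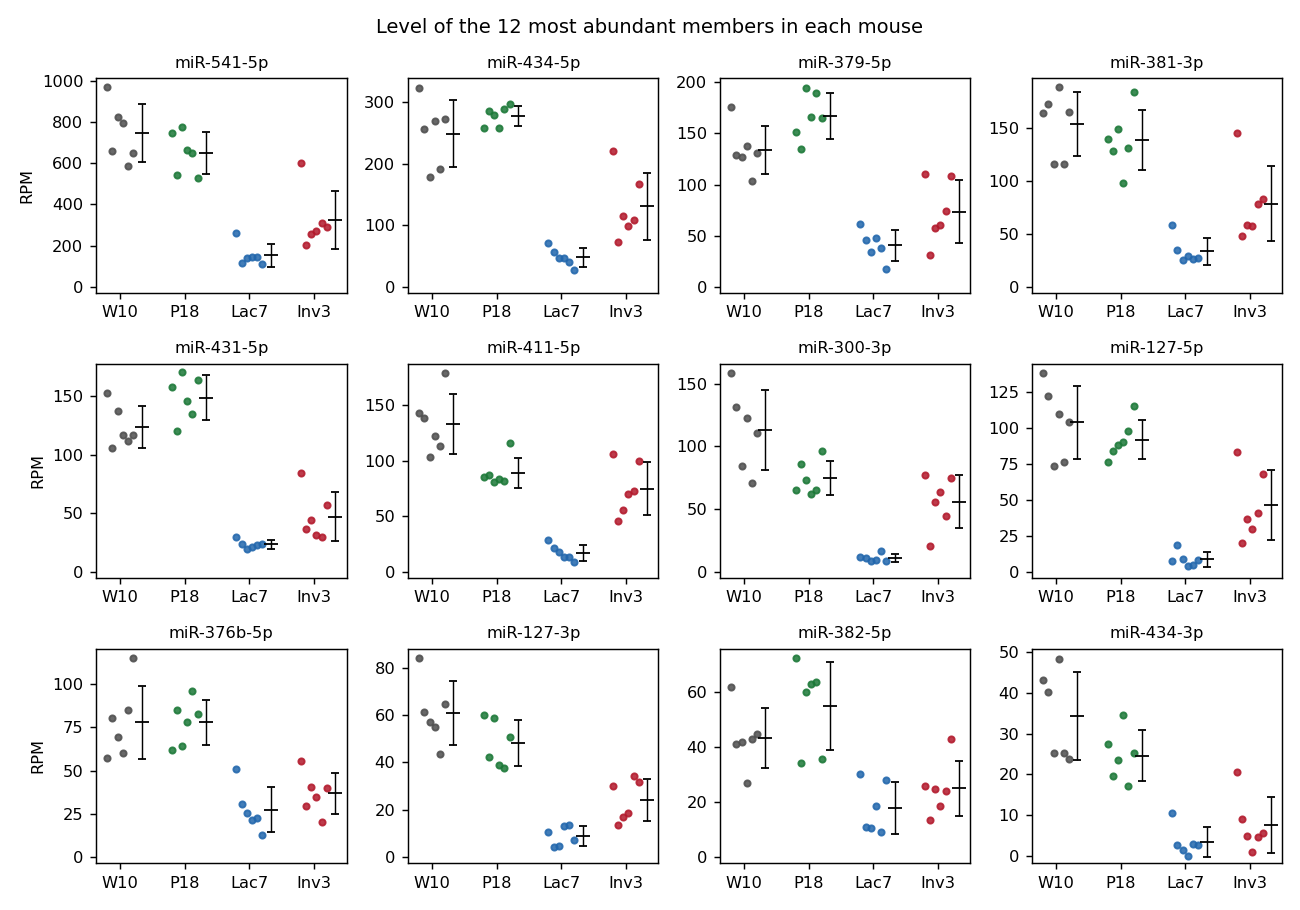
RPM (vertical axes, each panel with its own scale) of the 12 most abundant members in each mouse, by stage. Points are mice, and the black bar and whiskers are the mean and SD. In each panel the Lac7 mice lie lowest on average, for example at 112 to 259.7 RPM for miR-541-5p.

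Changes between stages were tested with limma, with one model of log2(RPM + 1) for all 24 libraries and 544 miRNAs. A miRNA counted as changed when its Benjamini-Hochberg adjusted p over the 544 was under 0.05 and its level changed by at least 1 on the log2 scale. The added 1 shrinks the fold change of scarce miRNAs. Consecutive comparisons share the mice of a stage and are not independent of each other. Nothing in the labels says more about the replicates than that they are separate mice.

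Between W10 and P18 few members of the cluster changed. Of the 50 members tested, none was higher at P18 (background 7.54% of the 544 miRNAs) and 3 were lower (background 20.0%). At an unadjusted p under 0.05, 1 member was higher and 11 were lower, and edgeR and DESeq2 also called none higher. The members that fell were miR-409-5p (log2 fold change -1.59 ± 0.46 SE, adjusted p = 0.0057), miR-299a-5p (-1.13 ± 0.36, adjusted p = 0.013) and the scarce miR-485-3p, all from block 3; the last is named after its values were seen. The call of miR-299a-5p was lost with a pseudocount of 0.1 or 10, with size factors (-0.89), by edgeR (-0.88), by DESeq2 (-0.93) and with a replicate block, and that of miR-409-5p with a pseudocount of 0.1 (-1.73) or 10 (-0.94). The median log2 fold change was -0.18 over the members and -0.32 over all 544 miRNAs. miR-411-5p (-0.57 ± 0.23, adjusted p = 0.054) and miR-300-3p (-0.56 ± 0.26, adjusted p = 0.084) did not pass, nor did miR-434-5p (0.19 ± 0.23, adjusted p = 0.52) or miR-379-5p (0.32 ± 0.27, adjusted p = 0.34). With values scaled by DESeq2 size factors, which follow the typical miRNA and not the total, the members' median became 0.03 and 2 members were lower (4.0%, against 14.0% of all). On the recovered reads, edgeR and DESeq2 each called 1 (2.0%, against 13.1% and 12.1% of all). Without P18 mouse 6 the number was 6, and likewise without W10 mouse 3 or 5, while it was 5 without P18 mouse 2.

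From P18 to Lac7 the cluster fell broadly. Of the 50 members tested, 32 (64.0%) were lower at Lac7, where 22.6% of all miRNAs tested were, and none was higher, where 7.54% of all were. No member was higher at an unadjusted p under 0.05 either, nor by edgeR or DESeq2. In 25 of the 50 (50.0%) the mice of the 2 stages also did not overlap, against a background of 14.7% of all miRNAs tested. These were 25 of the 32 members called, and 80 of the 123 miRNAs called in all. The median log2 fold change was -1.67 over the members and -0.34 over all, and the estimate was negative for 49 of 50. The smallest of the 32 falls was that of miR-380-3p (-1.11), named after its values were seen, which passed the filter through its P18 level alone (8 reads at P18, none at Lac7) and so had to differ. Without it 31 remain, with log2 fold changes from -1.30 to -3.41.

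miR-127-5p had the steepest fall among the members of at least 10 RPM (log2 fold change -3.41 ± 0.30 SE, adjusted p = 7.8e-10), with a P18 mean 10.6 times that at Lac7. It was followed by miR-434-3p (-2.87 ± 0.46, adjusted p = 9e-06), miR-300-3p (-2.67 ± 0.26, adjusted p = 3.9e-09) and miR-431-5p (-2.61 ± 0.20, adjusted p = 6.2e-11). Of these 4, 3 lie opposite to Rtl1. The most abundant member, miR-541-5p, fell by 2.13 ± 0.21 (adjusted p = 4e-09), with a P18 mean 4.27 times that at Lac7. The smallest falls among the 12 most abundant members were those of miR-376b-5p (-1.58 ± 0.26, adjusted p = 1.3e-05) and miR-382-5p (-1.66 ± 0.30, adjusted p = 4.8e-05).

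The fall included all blocks. Of the tested members opposite to Rtl1, 6 of 7 were lower at Lac7 (median log2 fold change -2.58), of those within Mirg 9 of 16 (-1.47), and of those between annotated genes 16 of 26 (-1.58). From Rian, miR-341-3p was the only member tested and fell (log2 fold change -2.0). The difference between these groups was not tested. A further member of block 1, miR-665-3p, which is named after its values were seen, had 55 reads over the 6 P18 libraries and 1 read over the 6 Lac7 libraries, with 34 at Inv3.

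**Figure D4:**
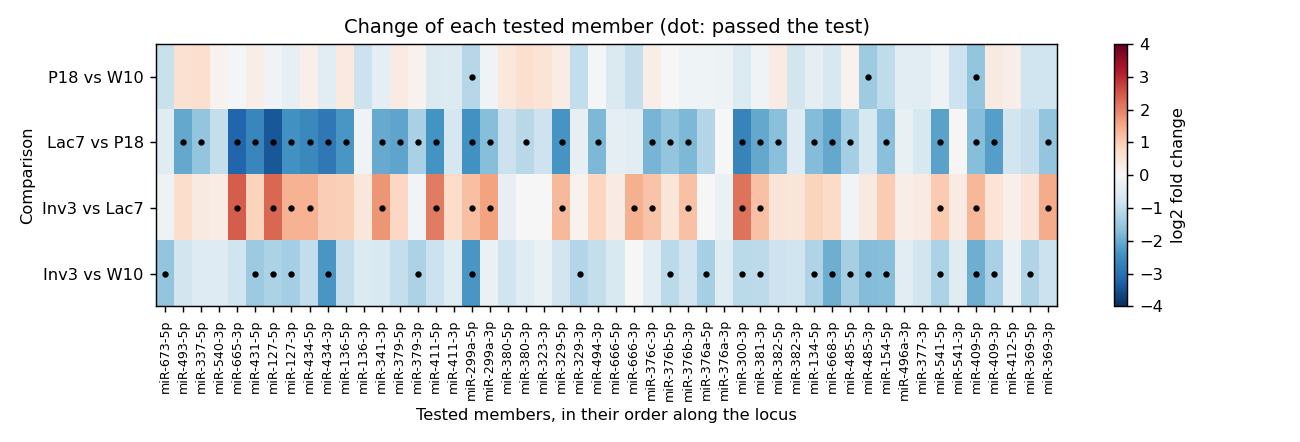
Log2 fold changes (colour) of the 50 tested members (horizontal axis, in their order along the locus) in the 4 comparisons (vertical axis). A dot marks a change that passed the test. The P18 to Lac7 row is blue with 32 dots, the Lac7 to Inv3 row is mostly red with 17 dots, and 3 and 21 dots mark lower members in the P18 vs W10 and Inv3 vs W10 rows.

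By day 3 of involution part of the cluster had risen again. Of the 50 members, 17 (34.0%) were higher at Inv3 than at Lac7 (background 16.5%) and none was lower (background 10.3%, with none lower at an unadjusted p under 0.05 or by edgeR or DESeq2). In 5 of the 50 (10.0%), miR-665-3p, miR-127-5p, miR-434-5p, miR-411-5p and miR-300-3p, the mice also did not overlap, a share near the background of 9.38% of all miRNAs. The median log2 fold change was 0.74 over the members and 0.28 over all miRNAs, and the estimate was positive for 43 members.

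Among members of at least 10 RPM, miR-127-5p rose most (log2 fold change 2.29 ± 0.30 SE, adjusted p = 5.7e-07), followed by miR-300-3p (2.17 ± 0.26, adjusted p = 1.2e-07), miR-411-5p (2.09 ± 0.23, adjusted p = 4.1e-08) and miR-127-3p (1.40 ± 0.28, adjusted p = 0.00016). With a pseudocount of 10 the calls of miR-127-3p (0.85) and of miR-381-3p (0.99) were lost. The Inv3 mean was 5.34 times that at Lac7 for miR-127-5p, 5.09 times for miR-300-3p and 4.36 times for miR-411-5p. miR-541-5p rose by 1.05 ± 0.21 (adjusted p = 0.00016), a call that was lost with size factors (0.87) and by DESeq2 (0.92). miR-431-5p, with 0.89 ± 0.20 (adjusted p = 0.00058), and miR-379-5p, with 0.82 ± 0.27 (adjusted p = 0.013), missed the limit on the size of the change. miR-376b-5p (0.47 ± 0.26, adjusted p = 0.14) and miR-382-5p (0.53 ± 0.30, adjusted p = 0.16) did not pass. Without Inv3 mouse 1 the number of members higher was 13, without Inv3 mouse 2 it was 20, and without mouse 1 of both stages it was 16.

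Compared with the adult gland, the cluster was still low at Inv3. Of the 50 members, 21 (42.0%) were lower at Inv3 than at W10 (background 19.5%) and none was higher (background 5.51%, with none higher at an unadjusted p under 0.05 or by edgeR or DESeq2). In 8 of the 50 (16.0%) the mice also did not overlap (background 9.01% of all miRNAs tested). These were 8 of the 21 members called, and 49 of the 106 miRNAs called in all. One of the 21, miR-329-3p, named after its values were seen, passed the filter through its W10 level alone and so had to differ, which leaves 20. The largest differences among members of at least 10 RPM were those of miR-299a-5p (log2 fold change -2.34 ± 0.36 SE, adjusted p = 1.3e-05), miR-434-3p (-2.33 ± 0.46, adjusted p = 0.00023), miR-409-5p (-1.96 ± 0.46, adjusted p = 0.0011) and miR-154-5p (-1.72 ± 0.46, adjusted p = 0.0039). miR-541-5p was also lower (-1.28 ± 0.21, adjusted p = 2.4e-05), whereas miR-411-5p (-0.86 ± 0.23, adjusted p = 0.0043) and miR-434-5p (-0.99 ± 0.23, adjusted p = 0.00086) missed the limit on size. With size factors the calls of miR-541-5p (-0.90), miR-381-3p (-0.66), miR-300-3p (-0.69), miR-376b-5p (-0.71), miR-127-5p (-0.90) and miR-127-3p (-0.98) were lost. With this scaling alone changed, the count of members was 10 (20.0%, against 11.6% of all miRNAs), the median over all 544 miRNAs moved from -0.41 to -0.10 and the members' median from -0.92 to -0.62. edgeR, which changes the model as well, called 8 members (16.0%, against 11.0% of all), and DESeq2 7 (14.0%, against 9.2%). With size factors, the median of all miRNAs also moved from -0.32 to -0.12 for P18 vs W10, from -0.34 to -0.14 for Lac7 vs P18 and from 0.28 to 0.18 for Inv3 vs Lac7.

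Taken over the 4 stages, the mean was highest at W10 for 30 of the 50 members (60.0%, against 50.2% of all 544 miRNAs) and at P18 for 19 (38.0% against 18.2%). It was lowest at Lac7 for 44 (88.0%, against 52.0% of all). Ties went to the earlier stage, as for miR-380-3p, which had 0 reads at both Lac7 and Inv3. None of the 50 was highest at Lac7, where 23.0% of all miRNAs were highest.

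The plain ratio of the 2 arms does not depend on the library total. In the test 1 RPM was added to each arm, which shrinks the log ratio where the arms are scarce. It was tested for 67 hairpins of the table whose arms both averaged 10 RPM or more, of which Mir127 and Mir434 were the members. A ratio counted as changed when its adjusted p over these hairpins was under 0.05, with no limit on the size of the change. The log2 ratio of 5p to 3p of Mir127 was 0.75 ± 0.23 (SD, n = 6) in W10 mice, 0.93 ± 0.39 in P18 mice, -0.05 ± 1.35 in Lac7 mice and 0.84 ± 0.44 in Inv3 mice. In the Lac7 mice it ran from -1.52 to 1.98, on few reads. Neither hairpin changed its ratio from W10 to P18 (26 of the 67 hairpins did, 38.8%), from P18 to Lac7 (25.4% of all did) or from Lac7 to Inv3 (49.3% of all did). The change of Mir127 was -0.98 ± 0.40 SE (adjusted p = 0.068) from P18 to Lac7 and 0.88 ± 0.40 (adjusted p = 0.064) from Lac7 to Inv3. The change of Mir434 was 0.29 ± 0.41 (adjusted p = 0.60) and 0.41 ± 0.41 (adjusted p = 0.38). With a pseudocount of 10 both hairpins passed in these comparisons. At Lac7 that addition exceeds the means of miR-127-3p (8.82 RPM) and miR-434-3p (3.42 RPM), so it shrinks the ratio at Lac7 by its construction.

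The table also lists 7 miRNAs from the same region whose numbers are outside the naming rule. The 5 tested were miR-1193-3p and both arms of miR-3071 and of miR-3544, so they are not 5 separate hairpins. All 5 were lower at Lac7 than at P18 (background 22.6% of the 544 miRNAs). All 5 were also lower at Inv3 than at W10 (background 19.5%), with miR-1193-3p near the limits (-1.03, adjusted p = 0.047). None changed between W10 and P18 (background 7.54% higher and 20.0% lower) or between Lac7 and Inv3 (16.5% higher and 10.3% lower). The most abundant, miR-3071-3p, had a mean of 154 ± 38 RPM (SD, n = 6) in W10 mice, 178 ± 38 in P18 mice, 44.1 ± 22.1 in Lac7 mice and 74.7 ± 39.7 in Inv3 mice. It fell by 2.09 from P18 to Lac7 (log2, adjusted p = 1.4e-06). Its hairpin lies opposite to Mir136, and miR-3544 lies opposite to Mir337, so reads of these partners may not be told apart.

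miRNAs of other imprinted loci differed from the cluster between W10 and P18, but most of those tested also fell from P18 to Lac7. miR-335-5p, from the Mest gene, rose from 37.0 ± 8.2 RPM at W10 to 134 ± 20 at P18 (log2 fold change 1.84, adjusted p = 1.1e-06) and was at 82.7 ± 26.3 at Lac7 and 40.7 ± 16.8 at Inv3. miR-184-3p, from near Rasgrf1, fell from 509 ± 185 RPM at W10 to 47.7 ± 11.4 at P18 (log2 fold change -3.33, adjusted p = 2.3e-10). After P18 it took the same directions as the cluster, with 17.6 ± 5.4 RPM at Lac7 (-1.4, adjusted p = 0.00011) and 64.0 ± 26.0 at Inv3 (1.76 against Lac7, adjusted p = 5.5e-06). Of the 5 tested in this list, 4 were higher and 1 was lower at P18 than at W10, 4 were lower at Lac7 than at P18, 1 was higher and 1 lower at Inv3 than at Lac7, and 1 was lower at Inv3 than at W10. In the Dlk1-Dio3 cluster, by comparison, no member was higher at P18.

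Marker miRNAs of cell types moved with the cluster in some comparisons. The fibroblast list (miR-199 and miR-214 arms, 5 of 6 listed, none at 0) summed to between 76320 and 107800 RPM in the W10 mice, 49390 and 61780 in the P18 mice, 17420 and 24400 in the Lac7 mice and 42460 and 67650 in the Inv3 mice. Of its 5 miRNAs, 2 were lower at P18 than at W10, 4 were lower at Lac7 than at P18, 5 were higher at Inv3 than at Lac7, and 2 were lower at Inv3 than at W10. The part of this list in the changes of the cluster was not tested. Per 1000 RPM of the fibroblast list, the cluster stood between 18.96 and 28.8 RPM in W10 mice, 32.5 and 41.9 in P18 mice, 15.7 and 28.4 in Lac7 mice and 9.39 and 28.0 in Inv3 mice. On that ratio the P18 mice were above all mice of the other stages, and those of Lac7 overlapped with W10.

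The epithelium list (the miR-200 family, miR-205 and the miR-183 cluster, 9 of 9 listed) moved the other way. Its sum lay between 15930 and 22340 RPM in the W10 mice, 52520 and 67100 in the P18 mice, 122000 and 141700 in the Lac7 mice and 25980 and 83720 in the Inv3 mice. In RPM, more epithelial miRNA leaves fewer reads to the rest, and the part of this in the changes of the cluster was not tested. In this list of 9, 8 were higher at P18 than at W10, 6 were higher and 1 was lower at Lac7 than at P18, 1 was higher and 7 were lower at Inv3 than at Lac7, and 7 were higher at Inv3 than at W10. Inv3 mouse 1, with the most Dlk1-Dio3 miRNA, and Inv3 mouse 2, with the least, had the lowest sums of this list at Inv3, 29207 and 25977 RPM, and the highest sums of the fibroblast list, 67649 and 63586 RPM.

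After P18, markers of lymphocytes (3 of 3 listed) and of leukocytes and myeloid cells (3 of 3) moved as the cluster did. Before that they differed. The sums of both lists were lower in every P18 mouse than in every W10 mouse, whereas the cluster's sums overlapped and few of its members changed. Of the lymphocyte list 2 were lower at P18 than at W10, 3 were lower at Lac7 than at P18, 3 were higher at Inv3 than at Lac7 and 1 was lower at Inv3 than at W10, with sums between 3592 and 5007 RPM in W10 mice, 1637 and 2530 in P18 mice, 424 and 838 in Lac7 mice and 1575 and 3743 in Inv3 mice. Of the leukocyte list these numbers were 2, 2, 3 and 2, with sums between 24720 and 47270 RPM in W10 mice, 6903 and 23190 in P18 mice, 3939 and 11990 in Lac7 mice and 12880 and 23540 in Inv3 mice. Neuron markers (3 of 3), of interest since the cluster is abundant in the brain, summed to between 159 and 227 RPM in W10 mice, 68.3 and 92.2 in P18 mice, 49.2 and 84.1 in Lac7 mice and 51.2 and 86.4 in Inv3 mice, and 1 of them was lower at P18 than at W10, none passed the test from P18 to Lac7 or from Lac7 to Inv3, and 2 were lower at Inv3 than at W10. Skeletal muscle markers (4 of 4) varied widely within a stage, with between 2378 and 24030 RPM in W10 mice, 194 and 2420 in P18 mice, 104 and 5001 in Lac7 mice and 215 and 947 in Inv3 mice. Of these 4 markers, 3 were lower at P18 than at W10, none changed from P18 to Lac7, 2 were lower at Inv3 than at Lac7, and 4 were lower at Inv3 than at W10 (median log2 fold change -4.71).

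Of the remaining lists, none of the smooth muscle (3 of 3), endothelium (2 of 2) and liver (1 of 1) markers passed the test from P18 to Lac7, and 1 of 4 red blood cell markers was higher. From Lac7 to Inv3 none of the smooth muscle or endothelium markers passed the test, 1 red blood cell marker was lower and the liver marker miR-122-5p was higher. Between W10 and P18 only 2 red blood cell markers passed the test in these 4 lists, and both were lower. The smooth muscle list still summed to between 85810 and 104500 RPM in W10 mice and 139300 and 156500 in P18 mice. Its sums lay between 129900 and 149100 RPM in Lac7 mice and between 214900 and 297400 in Inv3 mice. From Lac7 to Inv3 these sums did not overlap, with a median log2 fold change of 0.82 over the markers. At Inv3, 1 smooth muscle marker and miR-122-5p were higher than at W10. miR-122-5p reached 2062 RPM in P18 mouse 6 and 626 RPM in Inv3 mouse 2. Without P18 mouse 6 the cluster had 6 members lower at P18 than at W10, as given above. The part of these lists in the changes of the cluster was not tested.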

How the data were processed

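Small RNA of whole mammary gland homogenates from 24 mice was sequenced by the authors with a QIAseq miRNA kit, assigned with QuickMIRSeq and miRBase 22, and deposited as RPM, reads per 1000000 reads on the listed miRNAs. The submitters' processing notes name Trimmomatic 0.36, cutadapt, FastQC, MultiQC and GRCm38. The use of molecular identifiers is not given in the sources used here. Within a library the deposited RPM are multiples of 1 step, and dividing by it returned whole reads for 100% of values (within 0.1 read). No library was left out.

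Testing used limma 3.58.1 (R 4.3.3) on log2(RPM + 1) for miRNAs whose mean reached 1 RPM at any stage. edgeR 4.0.16 and DESeq2 1.42.0 on the recovered reads were alternatives, beside other pseudocounts, filters and scaling, 12 libraries per fit, a replicate block and each mouse left out. Arm ratios were tested with the same stage model, but called on the adjusted p alone. The tests were checked on simulated data. Named are the 12 members with the highest mean and, per comparison, the 4 changed members of at least 10 RPM with the largest change. Positions are from GENCODE M21. Other steps used python 3.11.15, pandas 2.3.3 and matplotlib 3.10.9.

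The members, lists and rules were chosen with earlier results of these data known. Target predictions and treated cells are not analysed here.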

Additional observations from a re-analysis of the deposited data

Results flagged for a closer look

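In 8 of 52 groups of 6 mice (the sum of the cluster and the 12 most abundant members at each stage), 1 mouse lay far from the others by Dixon's test, where chance gives about 1 in 20. In Lac7 mouse 1 these were the summed level (692 RPM, next 410 RPM), miR-541-5p (259.7 RPM, next 144), miR-381-3p (58.6 RPM, next 34.8) and miR-434-3p (10.5 RPM, next 3.03). In Inv3 mouse 1 they were miR-541-5p (599.8 RPM, next 309.6) and miR-381-3p (145 RPM, next 83.1). The remaining values were miR-127-5p in Lac7 mouse 2 (18.7 RPM, next 8.90) and miR-411-5p in P18 mouse 6 (116 RPM, next 87.0). Members of a mouse share its library, so these are not independent of each other.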

How the results depend on the processing

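No member was called in the opposite direction in any of the alternatives, and no named member that passed in the report reversed. Of those that did not pass, miR-541-5p, miR-381-3p and miR-127-5p changed sign for P18 vs W10 with size factors, edgeR and DESeq2 (0.06 to 0.15). The number lower at P18 than at W10 (3) was 0 with a pseudocount of 10 (11.0% of all miRNAs were lower there). It was 1 by edgeR (2.0%, against 13.1% of all) and 1 by DESeq2 (2.0%, against 12.1%), and 3 to 6 with each mouse left out. The number lower at Lac7 than at P18 (32) was 13 with a pseudocount of 10 (26.0%, against 9.9% of all). It was 18 with a filter at 10 RPM, which leaves 18 members (28.0% of all miRNAs there were lower, and the filter can be passed through P18). With each mouse left out it was 32 to 34. The number higher at Inv3 than at Lac7 (17) was 5 with a pseudocount of 10, a share of 10.0% near the 8.1% of all miRNAs. It was 9 with the filter at 10 RPM (50.0%, against 21.4% of all), and 13 to 20 with each mouse left out. The number lower at Inv3 than at W10 (21) was 8 with a pseudocount of 10 (16.0%, against 9.2% of all). With the filter at 10 RPM it was 13 of 18 members, where 71 of 322 miRNAs were lower, and the filter can be passed through W10. It was 10 with size factors (20.0%, against 11.6% of all), 8 by edgeR (16.0%, against 11.0%) and 7 by DESeq2 (14.0%, against 9.2%). Leaving out each mouse gave 15 (without Inv3 mouse 2) to 23. A larger pseudocount lowers the change of scarce members by its construction.

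Detected at 5 RPM in place of 1 RPM were 28, 23, 12 and 19 members at W10, P18, Lac7 and Inv3. Without miR-541-5p the share of the cluster was 0.1478%, 0.137% and 0.0278% at W10, P18 and Lac7. Member hairpins with a changed arm ratio (0 of 2) numbered 1, 2 and 2 in the 3 consecutive comparisons with a pseudocount of 10, 1 from W10 to P18 with both arms at 3 RPM, and 0 to 1 with each mouse left out.

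On average, mice that share a number were not more alike than other mice. Over 188 miRNAs, deviations from the stage mean correlated on average by -0.05 in the 33 pairs of mice that share a number. These 33 pairs ran from -0.79 to 0.61. The average was 0.0 in 183 other pairs. A link within single pairs was not tested. The replicate block uses up W10 mouse 7, since that number is alone. With it, 4 members were lower at P18 than at W10 (8.0%, against 20.2% of all miRNAs). At Lac7, 32 were lower than at P18 (64.0%, against 22.6% of all). At Inv3, 17 were higher than at Lac7 (34.0%, against 16.5%) and 16 were lower than at W10 (32.0%, against 17.8%).

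The 27 untested members, with 1 to 14 reads in all, are limited by depth.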
